A study of Mus musculus with 9 samples.

Results

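The BCL2 family comprises proteins that hold or breach the outer membrane of mitochondria and so decide whether a cell enters apoptosis. The 10 genes described here were taken by symbol: the survival genes Bcl2, Bcl2l1, Mcl1 and Bcl2a1b, the BH3-only genes Bcl2l11, Bbc3, Pmaip1 and Bid, and the effector genes Bax and Bak1. All 10 were matched to an Ensembl identifier among the 47937 genes of the count table, and all 10 passed the filter on low counts that 12536 genes passed. RNA was sequenced from CD4+ T cells of C57BL/6 mouse spleens, bead-sorted for CD62L, a marker of naive and other resting lymphocytes. The 9 libraries formed 3 groups of 3, each with replicates numbered 1, 4 and 5. Th0_TEPP cells (TEPP-46 cells) were incubated for 15 min with TEPP-46, an activator of the glycolytic enzyme PKM2, and then stimulated on plate-bound antibodies to CD3 and CD28. The labels give TEPP-46 as a range of 50 to 100 µM and not per library. Th0_Ctrl cells (DMSO cells) received the solvent DMSO and the same stimulation. Resting cells are labelled only as such, and the treatment text, which is the same for all samples, names no step for them. No label gives the length of stimulation, the animals' age or sex, or whether resting cells were kept in culture. No label ties replicates to separate animals either, so p-values measure only how far these libraries differed, and that spread may be technical.

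In healthy T cells the survival proteins bind the BH3-only proteins and keep BAX and BAK, the effectors that form pores in the mitochondrial membrane, inactive. When BH3-only proteins outnumber their binding partners, the pores open, cytochrome c is released and caspases are activated. In the T cell lineage BIM, the product of Bcl2l11, is known for the deletion of self-reactive thymocytes and the contraction of responding T cells. BCL-2 and MCL-1 are known for the survival of naive T cells, with interleukin-7 as an upstream signal, and BCL-XL, the product of Bcl2l1, is known to be induced by CD28. PUMA (Bbc3) and NOXA (Pmaip1) are BH3-only products known as p53 targets.

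The promoter windows of the genes on which the results turn are printed first, because Bcl2l11 and Bcl2, the genes of BIM and BCL-2, stood at opposite ends in DMSO cells, where Bcl2l11 was lowest and Bcl2 highest of the 3 groups. They run from 250 bases before to 50 bases after a RefSeq transcription start on GRCm38.p6, 5′ to 3′ on the gene's strand. Capitals mark the forkhead (FOXO) core GTAAACA and the GC box GGGCGG, each searched on both strands. The first Bcl2l11 window is chr2:128125788-128126087, plus strand, the second chr2:128127325-128127624, plus strand, and the Bcl2 window chr1:106714241-106714540, minus strand. The second of the 3 Bbc3 windows, chr7:16310011-16310310, plus strand, is added because it also holds a FOXO core.
Bcl2l11, first window: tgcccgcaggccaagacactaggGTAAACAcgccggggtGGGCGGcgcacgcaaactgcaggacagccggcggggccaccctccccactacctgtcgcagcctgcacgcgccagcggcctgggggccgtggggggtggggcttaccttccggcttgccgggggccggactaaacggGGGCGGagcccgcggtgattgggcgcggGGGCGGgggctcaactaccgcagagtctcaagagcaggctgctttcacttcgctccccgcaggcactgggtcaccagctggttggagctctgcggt
Bcl2l11, second window: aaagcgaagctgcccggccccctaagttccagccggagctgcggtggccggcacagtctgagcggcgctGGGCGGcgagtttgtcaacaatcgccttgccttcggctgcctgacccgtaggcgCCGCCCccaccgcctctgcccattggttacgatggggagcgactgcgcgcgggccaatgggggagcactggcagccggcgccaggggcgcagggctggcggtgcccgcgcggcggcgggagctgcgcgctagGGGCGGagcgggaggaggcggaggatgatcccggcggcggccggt
Bcl2, only window: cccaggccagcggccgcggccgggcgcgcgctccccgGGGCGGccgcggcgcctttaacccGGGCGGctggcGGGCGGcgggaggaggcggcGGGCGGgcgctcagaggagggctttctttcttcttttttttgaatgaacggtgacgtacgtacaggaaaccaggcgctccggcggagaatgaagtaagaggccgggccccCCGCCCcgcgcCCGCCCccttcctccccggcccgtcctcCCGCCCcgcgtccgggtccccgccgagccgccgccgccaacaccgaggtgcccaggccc
Bbc3, second window: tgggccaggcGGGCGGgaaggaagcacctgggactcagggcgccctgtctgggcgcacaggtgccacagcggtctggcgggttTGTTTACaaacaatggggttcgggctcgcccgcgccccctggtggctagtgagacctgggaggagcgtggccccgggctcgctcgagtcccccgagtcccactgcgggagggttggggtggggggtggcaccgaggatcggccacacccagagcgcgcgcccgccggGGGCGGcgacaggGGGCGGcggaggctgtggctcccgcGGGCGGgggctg
RefSeq windows were matched for 9 of the 10 genes, 14 windows in all. The FOXO core was found once in the first Bcl2l11 window, with 220 bases between it and the start, and once in the second Bbc3 window, on the other strand, with 160 bases between. Of 32851 mouse promoter windows of this length, 3.65% hold it. The GC box was found 3 times in each Bcl2l11 window, 7 times in the Bcl2 window and 4 times in the Bbc3 window printed, and 35.7% of all windows hold at least 1. No printed FOXO core overlaps a GC box. The E-box CACGTG was found in the third Bbc3 window (1 match) and in the Bax window (2 matches), against 7.15% of all windows. The STAT5 spacing TTCNNNGAA was found in none of the 14 windows, against 8.3% of all windows. These are matches of letters, and binding was not measured.

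Levels are given as CPM, counts scaled to a common library size with TMM factors, edgeR's correction for differences in composition. They are shares of a library, and fewer cells of a type cannot be told apart from less RNA per cell. Library totals ran from 2397304 to 5030643 counts. A gene with 3 counts in a library had 0.601 to 1.25 CPM there. Genes of T cell identity (Cd3e, Cd4, Lck and others, 10 in all) summed to 8264 to 9742 CPM in TEPP-46 libraries, 4738 to 6359 CPM in DMSO libraries and 6108 to 10200 CPM in resting libraries. Some libraries stood apart within their group. TEPP-46 replicates 1 and 4 correlated at 0.818 (Pearson's r of log2 CPM across genes, a description), against 0.972 to 0.983 among DMSO libraries. Among resting libraries, the pair of replicates 4 and 5 had a correlation of 0.977, and replicate 1 had 0.938 and 0.937 with them.

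Activated T cells that had received TEPP-46 carried 5.15 times as much Bcl2l11 RNA as DMSO cells, and this was the only member that passed the test between these groups. Bcl2l11 (ENSMUSG00000027381.16, chromosome 2, 128126038 to 128162547, GRCm38), which encodes the BH3-only protein BIM, had 166, 155 and 206 CPM in TEPP-46 replicates 1, 4 and 5, against 24.2, 41.6 and 36.6 CPM in DMSO replicates 1, 4 and 5. All 3 TEPP-46 libraries lay above all 3 DMSO libraries, and the lowest TEPP-46 library rested on 372 counts. The log2 fold change was 2.36 ± 0.39 (SE), with an adjusted p of 0.00546 in the quasi-likelihood test of edgeR, two-sided and adjusted by Benjamini-Hochberg over 12536 genes, which is the test behind every adjusted p from edgeR given here. In all, 1 member rose and 0 fell. Over all genes tested, 9.72% rose and 6.43% fell, 16.2% together, so that 1 of 10 is near the background. Groups without overlap were seen for 1 member with TEPP-46 higher (Bcl2l11) and 1 with TEPP-46 lower (Bcl2), against 19.6% and 20.1% of all genes. At an unadjusted p below 0.05, 2 members were higher and 2 lower. DESeq2 called 1 up and 1 down, and limma-voom 1 up and 0 down. The median log2 fold change was -0.18 over the 10 members and 0.04 over all genes.

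Bcl2l11 fell in DMSO cells relative to resting cells. The 3 DMSO libraries named above, at 24.2 to 41.6 CPM, stood against 209, 91.5 and 76.5 CPM in resting replicates 1, 4 and 5. All 3 lay below every resting library. The log2 fold change of DMSO cells over resting cells was -1.88 ± 0.38 (edgeR adjusted p = 0.0051). Resting replicate 1 was the highest of its group by a wide margin, and without it the value was -1.30 (edgeR adjusted p = 0.00888). TEPP-46 cells averaged 176 ± 27.1 CPM and resting cells 126 ± 72.4 CPM (SD, n = 3 each). These groups overlapped, through resting replicate 1, and the log2 fold change of 0.48 ± 0.36 did not pass (edgeR adjusted p = 0.434). Without resting replicate 1, the TEPP-46 libraries were all above the remaining resting libraries and the value passed, at 1.06 (edgeR adjusted p = 0.0437). The 3 comparisons share libraries, so their values are given side by side and not as separate evidence.

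**Figure D1:**
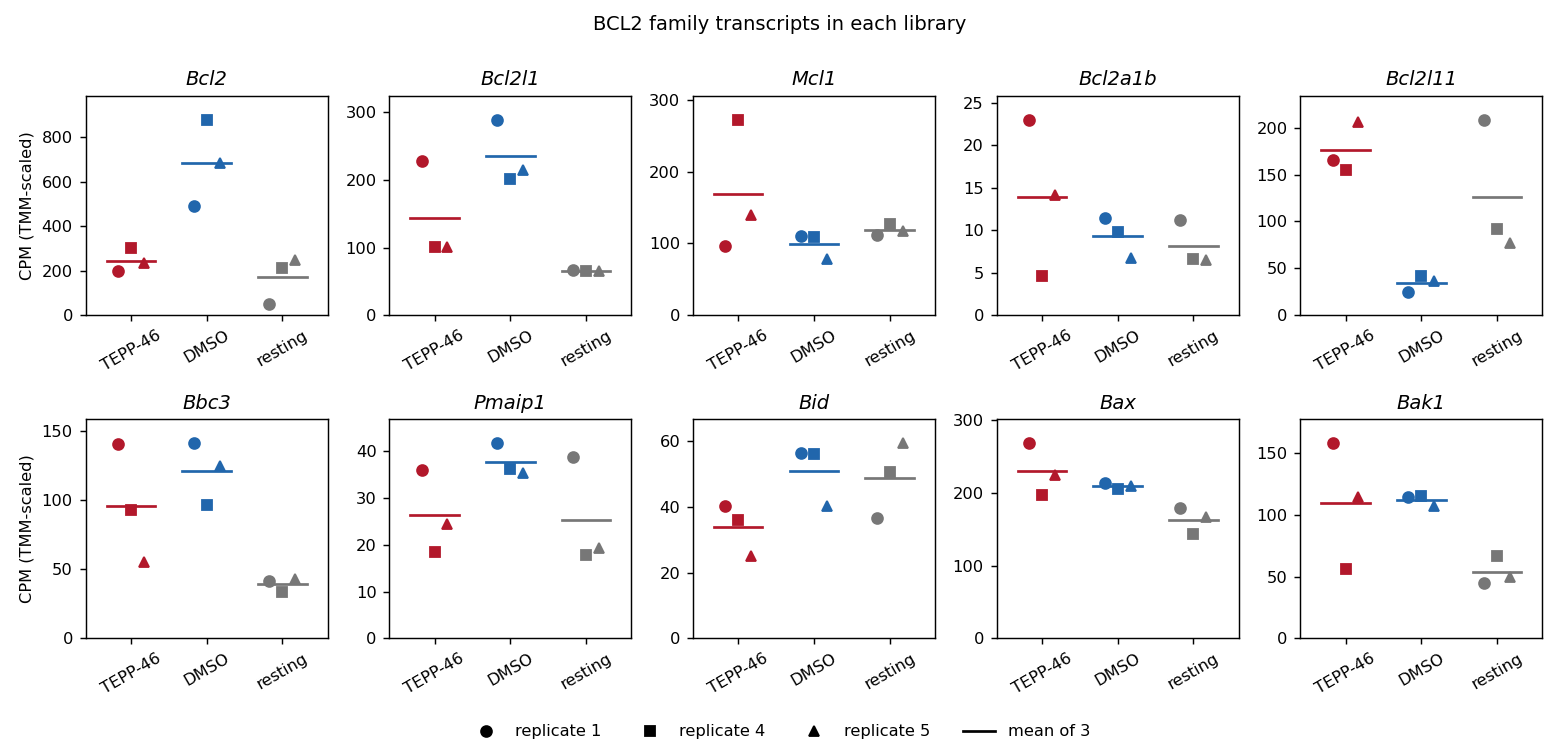
Level of each of the 10 members in CPM (linear axis from 0, scaled per gene) in the 3 libraries of TEPP-46, DMSO and resting cells, with marker shapes for replicates and a line at the group mean. Bcl2l11 stands at 24.2 to 41.6 CPM in DMSO cells and at 155 to 206 CPM in TEPP-46 cells, while Bcl2 stands highest in DMSO cells.

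Bcl2 was highest in DMSO cells, where Bcl2l11 was lowest. Bcl2 (ENSMUSG00000057329.7, chromosome 1, 106538178 to 106714274), the founding survival gene of the family, had 199, 301 and 235 CPM in TEPP-46 replicates 1, 4 and 5, against 491, 879 and 683 CPM in DMSO replicates 1, 4 and 5. Every DMSO library lay above every TEPP-46 library. The log2 fold change of -1.48 ± 0.49 nevertheless did not pass (edgeR adjusted p = 0.0639). Groups without overlap were common, at 39.7% of all genes in this comparison. The value lies near the threshold: it passed in 7 of 21 alternatives, with adjusted p from 0.00119 with library quality weights to 0.181 without DMSO replicate 4. Without resting replicate 1 it passed in edgeR (adjusted p = 0.00783), and the log2 fold change ran from -1.68 to -1.27 over the 21.

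Bcl2 rose in DMSO cells relative to resting cells. Its level in DMSO cells was 684 ± 194 CPM and in resting cells 169 ± 107 CPM (SD, n = 3 each), a log2 fold change of 2.02 ± 0.50 (edgeR adjusted p = 0.0127). Resting replicates 1, 4 and 5 had 47.9, 211 and 249 CPM, and no DMSO library fell into that range. The resting mean thus includes a library more than 4 times below the others, and without it the log2 fold change was 1.57 (edgeR adjusted p = 0.00698). TEPP-46 cells, at 245 ± 51.9 CPM, overlapped the resting libraries (0.53 ± 0.48 on the log2 scale, edgeR adjusted p = 0.523). Exons of Bcl2 overlap those of D630008O14Rik, an antisense gene, and no label gives the strand setting of the counting. D630008O14Rik had 0.203 to 0.302 counts per Bcl2 count in TEPP-46 libraries, 0.219 to 0.24 in DMSO libraries and 0.159 to 0.192 in resting libraries. Without the strand setting, it is not known whether reads of the pair were told apart.

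Bcl2l11 was also set against Bcl2 within each library, which takes the library total out of the comparison. Levels were divided by the length of all annotated exons (CPM per kb) before the ratio was taken. The ratio was 0.949, 0.588 and 1.003 in TEPP-46 replicates 1, 4 and 5, against 0.0562, 0.054 and 0.0612 in DMSO replicates 1, 4 and 5. It was 4.97, 0.495 and 0.350 in resting replicates 1, 4 and 5. DMSO libraries were close to one another and far below all others. That separation follows from the levels above, where every DMSO library was lowest for Bcl2l11 and highest for Bcl2, and is no further evidence. TEPP-46 libraries lay above resting replicates 4 and 5 and below resting replicate 1, the library that stands apart. With Bcl2l1 as the denominator, the ratio was 0.414 to 1.17 in TEPP-46 libraries, 0.0477 to 0.118 in DMSO libraries and 0.669 to 1.80 in resting libraries. With Mcl1, the TEPP-46 libraries, at 0.243 to 0.737, came closer to the DMSO libraries, at 0.0937 to 0.200. These ratios are of RNA and say nothing of protein amounts, and they are descriptions without a test.

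**Figure D2:**
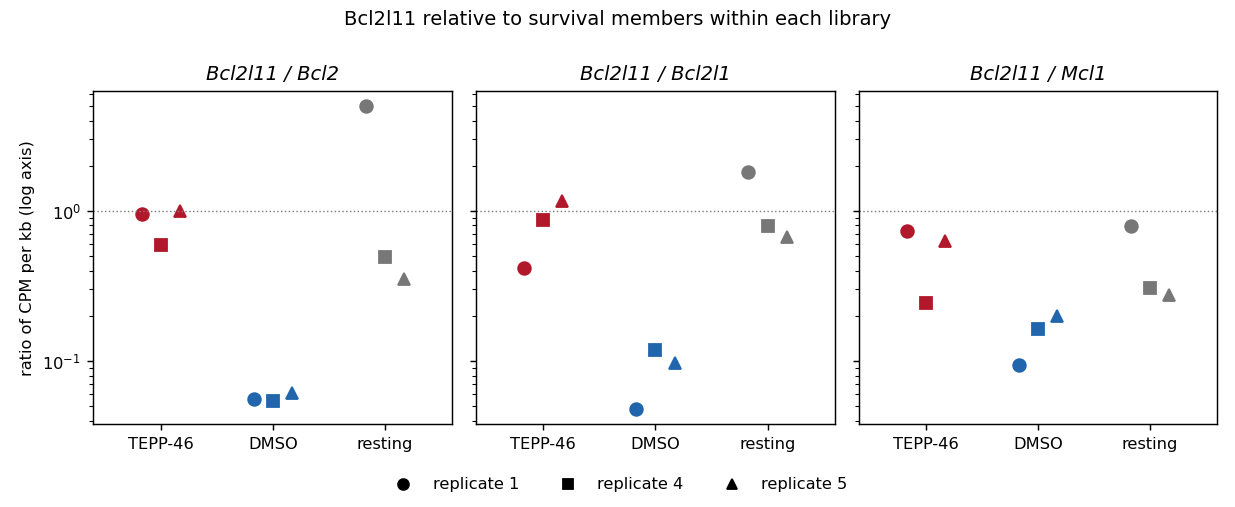
Ratio of Bcl2l11 to each of 3 survival genes within a library, from CPM per kb of exon, on a log axis, for TEPP-46, DMSO and resting cells with 1 point per library. Against Bcl2 the DMSO libraries sit between 0.054 and 0.0612, and the TEPP-46 libraries between 0.588 and 1.003.

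Bcl2l1 rose in both activated groups relative to resting cells. Bcl2l1 (ENSMUSG00000007659.18, chromosome 2, 152780668 to 152831728) encodes the survival protein BCL-XL. It had 228, 102 and 101 CPM in TEPP-46 replicates 1, 4 and 5, against 289, 201 and 215 CPM in DMSO replicates 1, 4 and 5. TEPP-46 replicate 1 fell among the DMSO libraries and the other two lay below them. The log2 fold change of -0.71 ± 0.31 did not pass (edgeR adjusted p = 0.141), and without TEPP-46 replicate 1 it was -1.22 (edgeR adjusted p = 0.00221). DMSO cells, at 235 ± 47.6 CPM, stood above resting cells, at 65.7 ± 0.412 CPM (SD, n = 3 each), by 1.84 ± 0.32 on the log2 scale (edgeR adjusted p = 0.00264). TEPP-46 cells, at 144 ± 73.3 CPM, also stood above resting cells, by 1.13 ± 0.32 (edgeR adjusted p = 0.0486). That last call was lost on leaving out any of resting replicates 1, 4 and 5, DMSO replicates 1, 4 and 5 or TEPP-46 replicate 1 (edgeR adjusted p of 0.0653 to 0.147).

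Mcl1 did not pass in any comparison. Mcl1 (ENSMUSG00000038612.16, chromosome 3, 95658788 to 95663176) encodes a short-lived survival protein that holds BIM and BAK. It had 95.7, 272 and 140.1 CPM in TEPP-46 replicates 1, 4 and 5, against 109.9, 109 and 78.1 CPM in DMSO replicates 1, 4 and 5 and 111, 128 and 117 CPM in resting replicates 1, 4 and 5. TEPP-46 replicate 4 was the highest of the 9 libraries, and TEPP-46 replicate 1 lay among the DMSO libraries. The log2 fold change over DMSO cells was 0.77 ± 0.34 (edgeR adjusted p = 0.136). It was 0.25 without TEPP-46 replicate 4 (edgeR adjusted p = 0.489) and 1.05 without TEPP-46 replicate 1 (edgeR adjusted p = 0.016). DMSO over resting cells gave -0.26 ± 0.34 (edgeR adjusted p = 0.582), with all 3 DMSO libraries below the resting libraries.

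Bcl2a1b, a survival gene of haematopoietic cells, was the least abundant member in counts. It had 84, 11 and 44 counts in TEPP-46 replicates 1, 4 and 5, 47, 41 and 27 counts in DMSO replicates 1, 4 and 5 and 56, 25 and 30 counts in resting replicates 1, 4 and 5. The groups overlapped in every comparison, and adjusted p ran from 0.368 to 0.793 in edgeR. Mouse Bcl2a1 exists in near-identical copies on chromosome 9. The annotated Bcl2a1b transcript differs from that of Bcl2a1d at 7 of 817 aligned bases, and 57.6% of its windows of 50 bases occur unchanged in Bcl2a1d. The division of reads between the copies is therefore uncertain. Bcl2a1d had 0.364 to 0.774 counts per Bcl2a1b count in TEPP-46 libraries, 0.707 to 0.851 in DMSO libraries and 0.72 to 0.8 in resting libraries, while Bcl2a1a had 2 counts over all 9 libraries and Bcl2a1c had 0.

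Of the other BH3-only genes, Bbc3 rose in both activated groups relative to resting cells. Bbc3 (ENSMUSG00000002083.12, chromosome 7, 16308393 to 16318205), which encodes PUMA, had 141, 92.8 and 55.1 CPM in TEPP-46 replicates 1, 4 and 5, against 142, 96.6 and 125 CPM in DMSO replicates 1, 4 and 5. These groups overlapped (log2 fold change -0.33 ± 0.31, edgeR adjusted p = 0.479). Resting replicates 1, 4 and 5 had 41.7, 33.7 and 42.9 CPM, below every activated library. Bbc3 rose in DMSO cells over resting cells by 1.62 ± 0.32 on the log2 scale (edgeR adjusted p = 0.00472). It rose in TEPP-46 cells over resting cells by 1.29 ± 0.32 (edgeR adjusted p = 0.0321), a call that was lost without any 1 of the resting or DMSO libraries (edgeR adjusted p of 0.0517 to 0.124).

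Pmaip1 and Bid did not pass in any comparison. Pmaip1, whose product NOXA binds MCL-1, had 35.9, 18.4 and 24.5 CPM in TEPP-46 replicates 1, 4 and 5, against 41.8, 36.1 and 35.4 CPM in DMSO replicates 1, 4 and 5 and 38.7, 17.9 and 19.4 CPM in resting replicates 1, 4 and 5. TEPP-46 libraries spanned nearly the resting range, and DMSO libraries overlapped it through resting replicate 1. Without that library, Pmaip1 in DMSO cells over resting cells passed at 1.02 (edgeR adjusted p = 0.0429), against 0.57 ± 0.35 with it (edgeR adjusted p = 0.234). Bid, whose product links death receptors to mitochondria once cut by caspase-8, had 40.3, 35.9 and 25.1 CPM in TEPP-46 replicates 1, 4 and 5, against 56.4, 55.9 and 40.2 CPM in DMSO replicates 1, 4 and 5. The lowest DMSO library lay just below the highest TEPP-46 library (log2 fold change -0.59 ± 0.28, edgeR adjusted p = 0.161). Resting libraries had 36.6 to 59.5 CPM of Bid. Bid shares exon positions with Bcl2l13 on the other strand, which had 0.989 to 2.55 counts per Bid count over the 9 libraries.

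Of the effector genes, Bak1 rose in DMSO cells over resting cells, and neither Bax nor Bak1 passed in TEPP-46 over DMSO cells (log2 fold changes of 0.14 ± 0.19 and -0.04 ± 0.33, edgeR adjusted p of 0.642 and 0.951). Bax (ENSMUSG00000003873.10, chromosome 7, 45461697 to 45466898) had 269, 197 and 224 CPM in TEPP-46 replicates 1, 4 and 5, against 214, 205 and 209 CPM in DMSO replicates 1, 4 and 5 and 179.5, 143 and 167 CPM in resting replicates 1, 4 and 5. All activated libraries lay above all resting libraries, but the log2 fold changes were small and did not pass. They were 0.49 ± 0.19 in TEPP-46 cells over resting cells (edgeR adjusted p = 0.125) and 0.36 ± 0.19 in DMSO cells over resting cells (edgeR adjusted p = 0.171). Exons of Bax overlap those of Gm45808 on the same strand, a gene that has no entry in the count table.

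Bak1 (ENSMUSG00000057789.13, chromosome 17, 27019810 to 27029009), which encodes the other effector, had 158, 56.0 and 114 CPM in TEPP-46 replicates 1, 4 and 5. DMSO replicates 1, 4 and 5 had 114, 115.5 and 107 CPM, and resting replicates 1, 4 and 5 had 44.5, 66.3 and 49.3 CPM. TEPP-46 replicate 4 was the only activated library within the resting range. Bak1 rose in DMSO cells over resting cells by 1.07 ± 0.33 on the log2 scale (edgeR adjusted p = 0.0316), and this call was lost without resting replicate 1 or 5 or DMSO replicate 1, 4 or 5 (edgeR adjusted p of 0.0764 to 0.0957). In TEPP-46 cells over resting cells the value was 1.04 ± 0.33 (edgeR adjusted p = 0.0722), and 1.35 without TEPP-46 replicate 4 (edgeR adjusted p = 0.00731). Exons of Bak1 overlap those of Ggnbp1 on the opposite strand, which had 0.236 to 0.343 counts per Bak1 count over the 9 libraries.

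Counted together, 4 members rose (Bcl2, Bcl2l1, Bbc3 and Bak1) and 1 fell (Bcl2l11) in DMSO cells over resting cells. Of all genes tested, 15.5% rose and 15.8% fell in that comparison, 31.2% together. The share of rises is larger among the 10 members, and the 1 fall is near the background. The members were chosen with earlier results of these data known, so no excess can be read from these counts. Groups did not overlap for 7 members, 5 higher and 2 lower (Mcl1 and Bcl2l11), against 59.2% of all genes (29.2% higher and 30% lower). The median log2 fold change was 0.47 over the members and -0.04 over all genes. In TEPP-46 cells over resting cells, 2 members rose (Bcl2l1 and Bbc3) and 0 fell, against 6.37% and 3.92% of all genes, 10.3% together. Groups did not overlap for 3 members (Bcl2l1, Bbc3 and Bax), all higher, against 12.7% of all genes higher, 14.1% lower and 26.8% in either direction. At an unadjusted p below 0.05, 4 were higher and 0 lower. DESeq2 called 3 up and 0 down, and limma-voom 0 in either direction. The median log2 fold change was 0.52 over the members and 0.02 over all genes.

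**Figure D3:**
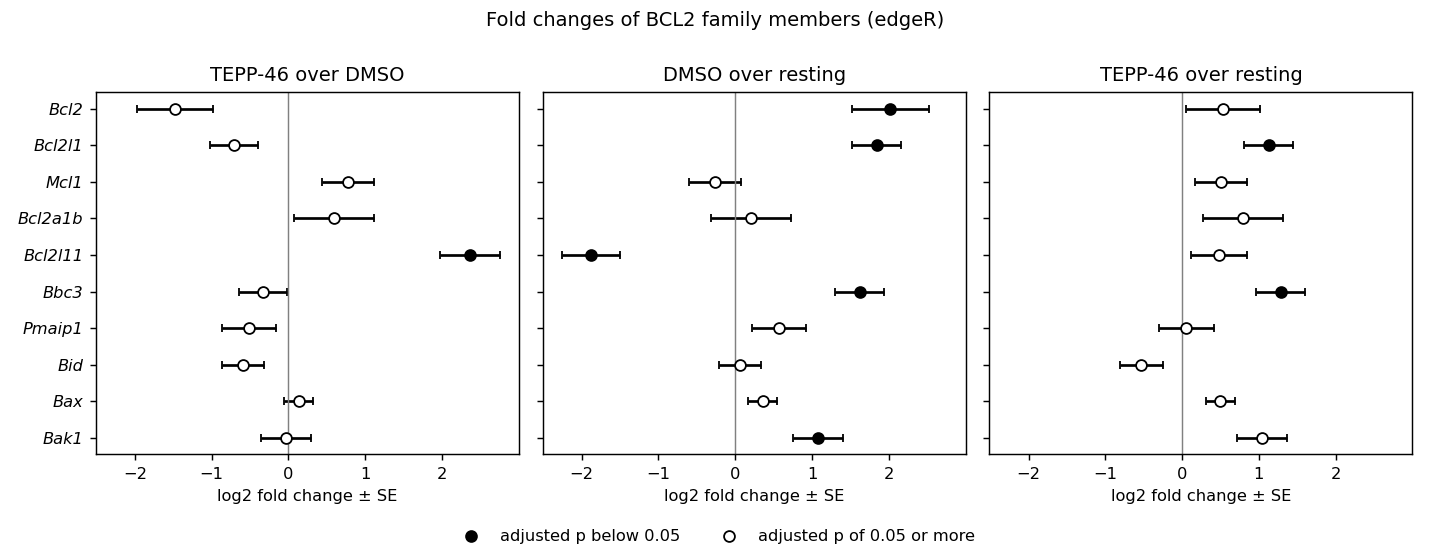
Log2 fold change with its standard error for each member in 3 comparisons, TEPP-46 over DMSO, DMSO over resting and TEPP-46 over resting cells, from edgeR with 3 libraries per group, filled points passing an adjusted p below 0.05. Bcl2l11 is at 2.36 in the first comparison and at -1.88 in the second, while Bcl2 is at -1.48 and 2.02.

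Per kb of exon, Bax was the most abundant of the 10 in every group, and the order behind it differed. This rank of Bax depends on the division by exon length. As CPM, Bcl2 had a higher mean than Bax in every group. In DMSO cells the means were 684 ± 194 against 209.5 ± 4.46 CPM. They were closer in TEPP-46 cells (245 ± 51.9 against 230 ± 36.1) and in resting cells (169 ± 107 against 163 ± 18.3). In TEPP-46 cells Bax stood at 146 ± 22.9 CPM per kb, followed by Mcl1 at 49.6 ± 26.9, Bak1 at 45.4 ± 21.3 and Bbc3 at 45.3 ± 20.2, which do not differ beyond their spread. Bcl2l11 stood at 21.9 ± 3.37 CPM per kb, close to Bcl2 at 26.8 ± 5.66. In DMSO cells the level of Bax was 133 ± 2.83 CPM per kb, with Bcl2 next at 74.7 ± 21.2, then Bbc3 at 57.0 ± 10.7 and Bcl2l1 at 51.3 ± 10.4. Bcl2l11 came last of the 10, at 4.25 ± 1.117 CPM per kb. In resting cells Bax had 104 ± 11.6 CPM per kb and Mcl1 34.8 ± 2.39, and Bak1, Bbc3, Bcl2, Bcl2l11, Bcl2l1 and Bid lay between 13.8 and 22.2 CPM per kb (SD over 3 libraries throughout).

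As a share of the summed CPM per kb of the 10 genes, the survival genes made up 26.9, 38.1 and 29.2% in TEPP-46 replicates 1, 4 and 5, against 36.5, 41.6 and 36.5% in DMSO replicates 1, 4 and 5. They made up 24.6, 33.2 and 31.7% in resting replicates 1, 4 and 5. TEPP-46 replicate 4 overlapped the DMSO libraries, with 21.6% of the sum in Mcl1 alone. Bcl2 took 4.57 to 8.92% of the sum in TEPP-46 libraries, 11.99 to 21.8% in DMSO libraries and 1.95 to 10.3% in resting libraries. Bcl2l11 took 4.34 to 7.08% in TEPP-46 libraries, 0.674 to 1.17% in DMSO libraries and 3.61 to 9.69% in resting libraries. By this measure the BH3-only genes together differed less, at 18.6 to 23.4% in TEPP-46 libraries, 18.0 to 22.6% in DMSO libraries and 19.3 to 26.1% in resting libraries. Summed as CPM, without division by length, they lay at 302.5 to 382.4 in TEPP-46, 230.2 to 264.1 in DMSO and 193.6 to 325.7 in resting libraries. The survival genes summed to 490.4 to 679.8, 901.9 to 1198 and 236.5 to 438.2 CPM. On that scale TEPP-46 and DMSO libraries did not overlap for either set, but each set moved mostly through 1 gene. Bcl2l11 averaged 176 against 34.1 CPM and Bcl2 245 against 684 CPM in TEPP-46 and DMSO cells. The other BH3-only genes, Bbc3, Pmaip1 and Bid, had negative log2 fold changes (-0.33, -0.52 and -0.59). Of the other survival genes, Bcl2l1 was lower (-0.71) and Mcl1 and Bcl2a1b higher (0.77 and 0.59). None of these passed.

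**Figure D4:**
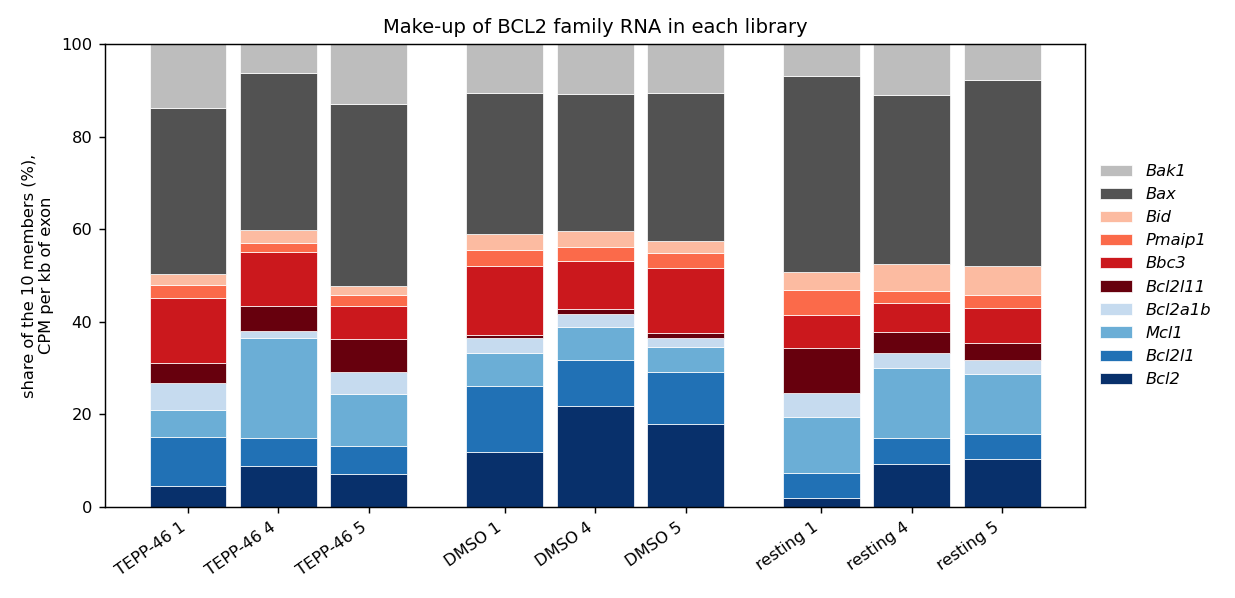
Share of each member in the summed CPM per kb of the 10 genes (percent, stacked to 100) in each TEPP-46, DMSO and resting library, with blue for survival genes, red for BH3-only genes and grey for effectors. Bcl2 takes 11.99 to 21.8% in DMSO libraries and 4.57 to 8.92% in TEPP-46 libraries, and Bcl2l11 is the thin band of 0.674 to 1.17% in DMSO libraries.

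Markers of other cell types were summed in each library. The B cell, myeloid, and platelet and red cell sums of every TEPP-46 library lay above those of every DMSO library. The neutrophil, NK and CD8 sums overlapped between these groups. The 10 B cell markers summed to 743 to 1310 CPM in TEPP-46 libraries, 234 to 262 CPM in DMSO libraries and 2551 to 3959 CPM in resting libraries, with Blk at 0 counts in DMSO libraries. Ighm alone averaged 783, 229 and 1705 CPM in TEPP-46, DMSO and resting cells, and Igkc 49.2, 3.59 and 1408 CPM. The others were lower and uneven, with Cd79a at 3.56 to 60.2 CPM in TEPP-46 libraries. Cd79b, Pax5 and Ebf1 did not pass in TEPP-46 over DMSO cells. The 10 myeloid markers summed to 153 to 202, 116 to 145.1 and 167 to 270.4 CPM, with Adgre1, Itgax and Tyrobp at 0 counts in DMSO libraries. Of these, Ctss alone averaged 121.5, 101.8 and 167.4 CPM in TEPP-46, DMSO and resting cells. Csf1r and Cd68 had negative log2 fold changes in TEPP-46 over DMSO cells (-0.40 and -0.31) and did not pass. The 7 neutrophil markers reached 182 CPM in TEPP-46 replicate 4 against 0.822 and 4.19 CPM in TEPP-46 replicates 1 and 5, with at most 1.004 CPM in DMSO libraries and 106 to 185 CPM in resting libraries. The 7 NK markers lay at 84.4 to 106, 76.8 to 132 and 34.6 to 174 CPM, and the 2 CD8 markers at 3.87 to 11.2, 8.03 to 10.04 and 9.01 to 22.1 CPM. Within the NK sum, markers went different ways in TEPP-46 over DMSO cells. Nkg7, its largest part in these groups, averaged 58.7 against 97.4 CPM, without overlap, and did not pass (edgeR adjusted p = 0.361). Klrd1 and Prf1 rose (6.92 and 2.08 on the log2 scale, edgeR adjusted p of 0.00294 and 0.0358), and Klrb1c did not pass (-1.82). The 7 platelet and red cell markers summed to 16.4, 269.9 and 83.8 CPM in TEPP-46 replicates 1, 4 and 5, 1.19 to 4.89 CPM in DMSO libraries and 2.80 to 11.6 CPM in resting libraries. Nuclear and mitochondrial RNAs used to gauge RNA quality (7 genes, among them Malat1 and Neat1) summed to 6283, 15800 and 16200 CPM in TEPP-46 replicates 1, 4 and 5, 6199 to 6410 CPM in DMSO libraries and 9341 to 11710 CPM in resting libraries. Malat1 alone averaged 9173, 3320 and 5991 CPM in TEPP-46, DMSO and resting cells. Mitochondrial genes went different ways, with mt-Cytb at 2303, 1197 and 2980 CPM. The means of mt-Co1 were 656, 1218 and 363 CPM, and those of mt-Nd1 341, 333 and 660 CPM. Of the 6 genes tested, 0 passed in TEPP-46 over DMSO cells in edgeR, where 16.2% of all genes did. In TEPP-46 replicates 1, 4 and 5, Bcl2l11 had 166, 155 and 206 CPM. Mcl1 had 95.7, 272 and 140.1 CPM and Bak1 had 158, 56.0 and 114 CPM in these libraries. In TEPP-46 over DMSO cells, 6 of 9 B cell markers tested rose, as did 1 of 5 myeloid, 2 of 4 neutrophil, 2 of 4 NK, 2 of 2 platelet and red cell and 3 of 10 T cell identity genes, and none of these lists had a fall in edgeR, DESeq2 or limma-voom. These counts depended on the tool. DESeq2 called 8 B cell, 5 myeloid, 1 neutrophil, 2 NK, 2 platelet and red cell and 6 T cell identity genes up, and limma-voom 1, 0, 0, 1, 1 and 3, where edgeR called 9.72% of all genes up. Also at 0 counts in all DMSO libraries were S100a8, S100a9, Mpo, Elane, Ngp and Camp of neutrophils, Ncr1 and Klra4 of NK cells, and Pf4, Ppbp, Gp9, Hba-a1 and Hbb-bs of platelets and red cells. In all TEPP-46 libraries S100a8, Camp, Klra4, Klrb1c, Hba-a1, Hbb-bs and Hbb-bt were at 0. In all resting libraries Gp9 and Ppbp were. The part of these markers in the results was not tested.

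The rest of the family was mostly scarce. Of 16 further family genes, 9 had enough counts to be tested. Bnip3, a BH3-related gene of mitochondrial turnover, fell in TEPP-46 cells to 48.6 CPM, against 193 CPM in DMSO cells (log2 fold change -1.97 ± 0.53, edgeR adjusted p = 0.0321). It rose in DMSO cells over resting cells, which had 13.5 CPM (3.82 ± 0.57, edgeR adjusted p = 0.00141). The call against DMSO cells was lost without DMSO replicate 1, 4 or 5 or TEPP-46 replicate 4 or 5 (edgeR adjusted p of 0.0511 to 0.119), and without TEPP-46 replicate 1 the value was -2.92 (edgeR adjusted p = 0.000799). Bcl2l2, the survival gene of BCL-W, rose over resting cells in both activated groups, by 3.41 ± 0.85 with TEPP-46 (edgeR adjusted p = 0.0324) and 3.73 ± 0.84 with DMSO (edgeR adjusted p = 0.0086), with 82 counts over the TEPP-46 libraries, 137 over the DMSO libraries and 11 over the resting libraries. The call with TEPP-46 was lost without resting replicate 1 or 4, DMSO replicate 1, 4 or 5 or TEPP-46 replicate 5 (edgeR adjusted p of 0.0517 to 0.118). The Bcl2l2 value with TEPP-46 was 2.80 without resting replicate 1 and 5.91 without resting replicate 5, and with DMSO 3.12 and 6.23. In TEPP-46 over DMSO cells 0 of the 9 rose in edgeR, where 9.72% of all genes did, with 0 at an unadjusted p below 0.05 and 0 in DESeq2 or limma-voom. In the 2 comparisons with resting cells 0 of the 9 fell by any of these counts. Of all genes, 15.8% fell in DMSO over resting cells and 3.92% in TEPP-46 over resting cells in edgeR. The BH3-only genes Bad (25.4, 18.8 and 17.2 CPM in TEPP-46, DMSO and resting cells) and Bmf (4.13, 5.48 and 5.22 CPM) did not pass, and Hrk, Bik and Bok had too few counts to be tested. The median log2 fold change of the 9 was -0.26 in TEPP-46 over DMSO cells, 0.12 in DMSO over resting cells and 0.49 in TEPP-46 over resting cells.

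Downstream of the mitochondrion, 0 of 14 apoptosome, caspase and nuclease genes passed in either direction in TEPP-46 over DMSO cells in edgeR, DESeq2 or limma-voom, with 1 higher and 2 lower at an unadjusted p below 0.05. Over all genes, 16.2% passed in that comparison in edgeR. Without TEPP-46 replicate 4, Dffb passed at 0.77 (edgeR adjusted p = 0.0457). Diablo, whose product frees caspases from their inhibitors, fell relative to resting cells by 1.01 on the log2 scale with TEPP-46 (SE 0.23, edgeR adjusted p = 0.0238) and by 0.85 with DMSO (SE 0.23, edgeR adjusted p = 0.0187). Without 1 library these Diablo calls were lost in 3 and 5 of 9 cases, among them resting replicates 4 and 5 in both and DMSO replicate 5 in both, with DMSO replicates 1 and 4 in the second (edgeR adjusted p up to 0.0828 and 0.0735). Also against resting cells, Dffb, which encodes the DNA-cutting nuclease of apoptosis, fell in DMSO cells (-1.22 ± 0.24, edgeR adjusted p = 0.00476), and Dffa, its inhibitor, fell in TEPP-46 cells (-0.90 ± 0.24, edgeR adjusted p = 0.0418). The median of the 14 was -0.17 in TEPP-46 over DMSO cells, 0.29 in DMSO over resting cells and -0.003 in TEPP-46 over resting cells. The Dffa call was lost without any 1 library other than TEPP-46 replicate 1 (edgeR adjusted p up to 0.112).

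Among inhibitor of apoptosis (IAP) genes, 0 of 6 tested passed in TEPP-46 over DMSO cells in edgeR, where 16.2% of all genes did. At an unadjusted p below 0.05, 2 were higher and 0 lower, with 2 up and 0 down in DESeq2 and 0 in limma-voom. Without TEPP-46 replicate 1, Birc2 passed at 0.83 (edgeR adjusted p = 0.0152) and Birc5 at -2.64 (edgeR adjusted p = 0.00024), and without resting replicate 1 Birc3 passed at 0.76 (edgeR adjusted p = 0.0164). Birc3 and Birc2, which encode ubiquitin ligases of TNF receptor signalling, fell in DMSO cells over resting cells (-1.07 ± 0.24 and -0.96 ± 0.23, edgeR adjusted p of 0.00826 and 0.0119), the second lost without DMSO replicate 1 (edgeR adjusted p = 0.056). Birc5, encoding survivin, a protein of cell division, rose in DMSO cells (3.44 ± 0.75, edgeR adjusted p = 0.00712) and in TEPP-46 cells over resting cells (2.58 ± 0.73, edgeR adjusted p = 0.0497). The TEPP-46 libraries had 152, 22.1 and 15.1 CPM of Birc5 in replicates 1, 4 and 5, and without replicate 1 the log2 fold change over resting cells was 0.80 (edgeR adjusted p = 0.0791). The TEPP-46 call was lost without any 1 of the resting or DMSO libraries or TEPP-46 replicate 1 (edgeR adjusted p of 0.079 to 0.14). The median of the 6 was 0.61 in TEPP-46 over DMSO cells, -0.76 in DMSO over resting cells and 0.12 in TEPP-46 over resting cells.

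Over all genes, 9.72% rose and 6.43% fell in TEPP-46 over DMSO cells in edgeR. In the death receptor list of 12 genes, 1 rose and 0 fell, which is near that background (3 higher and 1 lower at an unadjusted p below 0.05, 0 falls in DESeq2 and limma-voom). It was Tradd, an adaptor of TNF receptor 1, with 60.0, 61.4 and 76.0 CPM in TEPP-46 replicates 1, 4 and 5 and 38.6, 42.5 and 30.6 CPM in DMSO replicates 1, 4 and 5 (0.82 ± 0.21, edgeR adjusted p = 0.0263). The call was lost without DMSO replicate 1, 4 or 5 or TEPP-46 replicate 5 (edgeR adjusted p of 0.0681 to 0.124). In DMSO over resting cells, Tradd fell (-1.21 ± 0.21, edgeR adjusted p = 0.00232), Fadd, the adaptor that recruits caspase-8, fell (-1.38 ± 0.31, edgeR adjusted p = 0.00879), and the TRAIL receptor gene Tnfrsf10b rose (1.66 ± 0.33, edgeR adjusted p = 0.00461). The median of the 12 was 0.41 in TEPP-46 over DMSO cells, -0.43 in DMSO over resting cells and 0.01 in TEPP-46 over resting cells. In TEPP-46 over resting cells 0 of the 12 passed in edgeR, DESeq2 or limma-voom (1 higher and 0 lower at an unadjusted p below 0.05). Of all genes, 10.3% passed in that comparison in edgeR, so that 0 of 12 is near the background.

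Genes that act on the family were also listed. Of 14 such genes, 1 rose and 0 fell in TEPP-46 over DMSO cells in edgeR (1 higher and 3 lower at an unadjusted p below 0.05, 1 fall each in DESeq2 and limma-voom). With 9.72% of all genes up and 6.43% down in edgeR, 1 of 14 is near the background. Il7r, the receptor chain for interleukin-7, had 216, 236 and 402 CPM in TEPP-46 replicates 1, 4 and 5, against 62.5, 104 and 92.6 CPM in DMSO replicates 1, 4 and 5 (1.72 ± 0.34, edgeR adjusted p = 0.0109). Resting libraries had 347 to 668 CPM of Il7r, above every DMSO library (-2.44 ± 0.35 in DMSO over resting cells, edgeR adjusted p = 0.00111). The TEPP-46 call was lost without DMSO replicate 1 or 5 (edgeR adjusted p of 0.0564 and 0.0536). Foxo1 and Foxo3, which encode forkhead factors, averaged 182 and 60.8 CPM in TEPP-46 cells, 141 and 64.2 CPM in DMSO cells and 198 and 84.9 CPM in resting cells, and did not pass in any comparison (both were chosen after their values were seen). The dynein light chain gene Dynll1, whose product tethers BIM, fell over resting cells with TEPP-46 (-1.66 ± 0.45, edgeR adjusted p = 0.0423) and with DMSO (-1.40 ± 0.44, edgeR adjusted p = 0.0351). Its relative Dynll2 rose with DMSO (1.93 ± 0.49, edgeR adjusted p = 0.0142), as did the outer membrane channel gene Vdac1 (1.31 ± 0.36, edgeR adjusted p = 0.0212), its relative Vdac3 (0.87 ± 0.26, edgeR adjusted p = 0.0296) and Ddit3, a stress factor gene (1.36 ± 0.42, edgeR adjusted p = 0.0317). Of these, both Dynll1 calls and the calls of Vdac1, Vdac3 and Ddit3 were each lost without 5 to 7 of the 9 libraries, the 3 DMSO libraries and resting replicate 5 among them in every case, and that of Dynll2 without resting replicate 4 (edgeR adjusted p up to 0.156). The median of the 14 was -0.17 in TEPP-46 over DMSO cells, 0.07 in DMSO over resting cells and -0.02 in TEPP-46 over resting cells. The Dynll1 value with TEPP-46 was -2.37 without TEPP-46 replicate 1, and the Dynll2 value with DMSO was 2.52 without resting replicate 5. Without TEPP-46 replicate 1, Vdac1 and Vdac3 were lower in TEPP-46 over DMSO cells, at -1.60 and -0.84 (edgeR adjusted p of 0.00269 and 0.0117).

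The genes whose pattern was most like that of a member were taken by the root mean square (RMS) difference of centred log2 CPM over the 9 libraries, among 8716 candidates with a mean of at least 10 CPM. For Bcl2l11 they were St8sia1 (RMS difference 0.232), Fam49a (0.273) and Spata13 (0.287). For Bcl2 they were Cisd3 (0.399), Dlg4 (0.403) and Agpat3 (0.407), all less close. Genes with clone or predicted-gene names were left out of the candidates. D630008O14Rik, the antisense gene whose exons overlap those of Bcl2, was therefore not compared. For Bcl2l1 the closest was Zfp280b (0.167). For Bbc3 the closest was Ccne2 (0.206), which encodes a cyclin of the entry into S phase. For Bak1 it was Ggnbp1 (0.166), the gene whose exons overlap its own. These are descriptions of likeness over libraries that share their groups.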

How the data were processed

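RNA was sequenced from 9 libraries, 3 per group. The authors deposited raw read counts per Ensembl gene, with no normalization. The submitters' processing notes name GRCm38 and DESeq2, and give neither the aligner, the counter nor the strand setting. Of 47937 identifiers, 47310 were paired with a GENCODE M21 symbol and the 627 others stayed in the fit.

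Computed here, with R 4.3.3: edgeR 4.0.16 (quasi-likelihood, TMM, filterByExpr at its defaults of 10 counts per library and 15 in total, prior count 2), all 3 groups in one fit with 6 residual degrees of freedom, Benjamini-Hochberg over 12536 genes, threshold 0.05. The common dispersion was 0.1086. Fold changes are on the log2 scale, with their standard error (SE). Alternatives were DESeq2 1.42.0, limma 3.58.1 (voom, with and without quality weights), other scalings and filters, a 2-group fit, a replicate block and each library left out. Simulated counts with known changes were used to test the fit.

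The members and the lists were chosen with earlier results of these data known. All 10 members are named; from each other list, up to 4 genes past the threshold per comparison by adjusted p, any further family gene, and the 3 genes nearest each member. For the genes nearest to a member, only some are printed. Some genes that these rules name are not reported here.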

Additional observations from a re-analysis of the deposited data

How the results depend on the processing

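Of the member values over 21 alternatives, 567 kept their direction and their side of the threshold, 27 lost a call, 25 gained one and 11 lost their direction, none of these past the threshold in either setting. With total counts only, Bax in TEPP-46 over DMSO cells was -0.003. With library quality weights, Bcl2l2 was 0.194 and Diablo 0.033 in TEPP-46 over DMSO cells, and Bid -0.143 in DMSO over resting cells. With 1 library left out, values that changed sign ran as follows. In TEPP-46 over DMSO cells, Bax ran from 0 to 0.235, Bak1 from -0.404 to 0.279, Diablo from -0.331 to 0.04 and Dynll1 from -0.973 to 0.03. In DMSO over resting cells, Bid ran from -0.112 to 0.219. In TEPP-46 over resting cells, Mcl1 ran from -0.012 to 0.787, Pmaip1 from -0.247 to 0.496, Birc3 from -0.469 to 0.001 and Vdac1 from -0.288 to 0.597. The rise of Bcl2l11 in TEPP-46 over DMSO cells passed in all 21 (log2 fold change 2.16 to 2.52, adjusted p of 6.12e-07 to 0.0366). In that comparison the members up numbered 2 with library quality weights and 1 to 2 with 1 library left out. Those down numbered 1 with DESeq2, with total counts only, with no filter, with only the 2 groups and with the replicate block, 5 with quality weights, and 0 to 1 with 1 library left out. In TEPP-46 over resting cells the members up numbered 0 with limma-voom, 0 with only the 2 groups and 0 with the replicate block, 1 with a filter of 1 CPM in 3 libraries, 4 with quality weights and 0 to 3 with 1 library left out, and those down numbered 1 with quality weights and 0 to 0 with 1 library left out. In DMSO over resting cells the counts stayed at 3 to 4 up and 1 down with 1 library left out. Without a block Bak1 passed in DMSO over resting cells, and with the block it did not (adjusted p = 0.0598). No label says whether the numbers 1, 4 and 5 pair the samples. Deviations from the group mean correlated at -0.124 to 0.089 for same-numbered libraries and at -0.108 to 0.123 for different-numbered ones. With 3 libraries per group, some of which stood apart, these values cannot settle whether the samples were paired. Genes called over the whole table varied more: in TEPP-46 over DMSO cells 2025 in the fit reported, 6164 with quality weights and 395 to 4407 with 1 library left out. Scaling by total counts alone moved the median of all genes by -0.131 in TEPP-46 over DMSO cells, 0.107 in DMSO over resting cells and -0.024 in TEPP-46 over resting cells. The causes were not tested. Groups of 3 limit what could pass, and Bcl2a1b, with 11 counts in a library, is the least precise member.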
